A study of Homo sapiens with 2 samples.

Results

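The 44 human genes of the proteasome families PSMA, PSMB, PSMC, PSMD, PSME and PSMF were followed across 3 groups of ovarian cancer cells, out of 58260 genes in the long-read table. They were taken by name alone: every transcript whose gene symbol was one of these family letters followed by a number, which gave 143 listed transcripts, 130 of them from the 44 genes and the others from genes that shared an entry with one. The cells came from 1 pool, in equal parts, of the established ovarian cancer lines IGROV1, SK-OV-3 and COV504. No treatment is given for any of them. The pool was read as 1 Illumina library and as 1 PromethION nanopore library. The second gave estimated counts per transcript and barcode, while from the first only its 2462 barcodes were used, all of them shared with the second.

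The labels do not say which cell came from which line, so cells were grouped by marker genes, none of them a proteasome gene. A barcode with at least 1000 counts joined a group when 1 marker set held at least 75% of its marker counts. The ERBB2-high set was ERBB2, NNMT, TSPAN1 and DHRS2, and it took 648 barcodes. The RARRES2-high set was RARRES2 and TMEM100, with 473 barcodes, and the FOLR1-high set was FOLR1, CLDN3, DEFB1 and CXCL14, with 765. The genes ERBB2, GRB7, MIEN1, STARD3 and PGAP3, which are amplified together in SK-OV-3, were each highest in ERBB2-high cells. ERBB2 was part of the rule, and of the other 4 MIEN1 was at 528 CPM (counts scaled to an equal total per group) against 143 in RARRES2-high and 103 in FOLR1-high cells, and GRB7 at 56.4 against 2.66 and 28.8. CDKN2A, taken as absent or lowest in SK-OV-3, was at 0.29 CPM there, 0 in RARRES2-high and 19.5 in FOLR1-high cells, so it did not single out ERBB2-high cells. The other groups are called by their leading genes. The summed level of 6 leukocyte markers was 0, 1.78 and 0.443 CPM in ERBB2-high, RARRES2-high and FOLR1-high cells, with CD3E, LYZ and FCGR3A at 0 in all 3. Other marker sums differed more, in the same order. Epithelial markers were at 1670, 7443 and 3288 CPM, endothelial markers at 1.45, 31.4 and 5.76, and fibroblast markers at 98.2, 24.9 and 3.54.

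The median depth was 4953 counts per cell in ERBB2-high, 6262 in RARRES2-high and 5289 in FOLR1-high cells. Mitochondrial genes took 2.93%, 3.11% and 7.07% of the counts in that order, and ribosomal protein genes took 12.9%, 16.2% and 28.8%. These shares enter every CPM, and their part in the differences below was not tested beyond the values given without these genes. A further 333 barcodes had under 1000 counts, 208 passed no marker share and 35 had no marker count. With 1 library there was no replicate and no test. Every interval is a 95% interval that covers counting error only, and whether repeated reads of 1 molecule were merged is not stated in the labels. Counts were not scaled by the length of the transcript, and values are compared for 1 gene, or 1 fixed set of genes, between groups of cells.

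The proteasome degrades proteins that carry ubiquitin chains. Its core particle is a barrel of alpha and beta rings with the cutting sites inside, made by the beta subunits of PSMB5, PSMB6 and PSMB7. A regulatory particle binds the end of the barrel, with a base of ATPases (the PSMC genes) that unfold the substrate and a lid (most PSMD genes) that removes ubiquitin. Under interferon, and constitutively in many immune cells, the cutting subunits are replaced by the immune subunits of PSMB8, PSMB9 and PSMB10, which favours peptides that fit class I antigen presentation.

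The promoters of the immune subunits are printed because PSMB8 and PSMB9 carried the widest differences of any member from FOLR1-high cells, and PSMB10 is shown beside them as the remaining immune subunit. Each is the 300 bases around a RefSeq transcription start (GRCh38.p14, 250 before and 50 after), 5′ to 3′ on the strand of the gene. PSMB8 has 2 starts: its first window is that of the downstream start and its second that of the upstream start. Capitals mark matches, on either strand, to the GAAA repeat (GAAA, any 2 bases, then GAAA again, an interferon response element pattern), TTCNNNGAA (a gamma-interferon activated site pattern), CCAAT (the CCAAT box) and TGACNNNGC (an antioxidant response element pattern).
PSMB8, chr6:32843998-32844297, minus strand: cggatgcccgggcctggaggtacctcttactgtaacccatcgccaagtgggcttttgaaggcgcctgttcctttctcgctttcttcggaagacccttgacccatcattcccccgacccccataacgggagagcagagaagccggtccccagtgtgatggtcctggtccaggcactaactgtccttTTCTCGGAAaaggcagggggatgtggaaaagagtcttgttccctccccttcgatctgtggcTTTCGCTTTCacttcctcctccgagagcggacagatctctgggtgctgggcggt
PSMB8, chr6:32844630-32844929, minus strand: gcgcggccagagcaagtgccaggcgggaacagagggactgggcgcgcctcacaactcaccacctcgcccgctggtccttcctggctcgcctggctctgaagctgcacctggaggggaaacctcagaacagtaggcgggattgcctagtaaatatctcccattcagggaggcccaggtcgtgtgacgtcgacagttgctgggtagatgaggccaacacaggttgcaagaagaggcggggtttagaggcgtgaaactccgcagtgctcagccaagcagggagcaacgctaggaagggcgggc
PSMB9, chr6:32853942-32854241, plus strand: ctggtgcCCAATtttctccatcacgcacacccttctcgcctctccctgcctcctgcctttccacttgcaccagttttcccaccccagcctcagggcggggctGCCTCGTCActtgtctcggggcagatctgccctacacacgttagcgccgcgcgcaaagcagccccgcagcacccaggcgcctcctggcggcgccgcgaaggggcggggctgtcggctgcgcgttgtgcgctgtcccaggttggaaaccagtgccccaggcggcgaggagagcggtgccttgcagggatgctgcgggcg
PSMB10, chr16:67936801-67937100, minus strand: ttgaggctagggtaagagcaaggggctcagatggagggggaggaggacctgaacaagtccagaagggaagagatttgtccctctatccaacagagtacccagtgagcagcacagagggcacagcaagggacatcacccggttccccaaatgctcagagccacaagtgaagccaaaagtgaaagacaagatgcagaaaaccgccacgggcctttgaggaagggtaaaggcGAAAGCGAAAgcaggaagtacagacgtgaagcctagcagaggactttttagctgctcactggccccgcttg
A match is a description of letters. The GAAA repeat stood in 1 PSMB8 promoter, beginning 4 bases before the start, and in PSMB10, beginning 21 bases before it. The PSMB9 window and the upstream PSMB8 window held no match to it. Of 35116 RefSeq promoters of the same length, 3.57% held this pattern. The 39 member genes with a promoter had 47 windows, and 6 of these held it (12.8%), in PSMA4, PSMB4, PSMB8, PSMB10, PSME1 and PSME2. CCAAT stood in 34.6% of all promoters and in 19 of the 47 windows (40.4%), TTCNNNGAA in 7.66% and in 8 (17.0%), and TGACNNNGC in 13.3% and in 13 (27.7%).

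PSME1 and PSME2 are printed beside them, because they encode the 2 partner subunits of an interferon-inducible activator of the core, lie next to each other on chromosome 14, and differed in opposite directions between ERBB2-high and RARRES2-high cells.
PSME1, chr14:24135944-24136243, plus strand: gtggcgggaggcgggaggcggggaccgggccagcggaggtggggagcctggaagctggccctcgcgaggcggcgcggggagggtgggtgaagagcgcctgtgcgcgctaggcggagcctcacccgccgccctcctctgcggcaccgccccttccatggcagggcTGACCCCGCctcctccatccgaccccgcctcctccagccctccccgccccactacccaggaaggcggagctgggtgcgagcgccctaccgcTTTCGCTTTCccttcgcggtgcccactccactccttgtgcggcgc
PSME2, chr14:24146561-24146860, minus strand: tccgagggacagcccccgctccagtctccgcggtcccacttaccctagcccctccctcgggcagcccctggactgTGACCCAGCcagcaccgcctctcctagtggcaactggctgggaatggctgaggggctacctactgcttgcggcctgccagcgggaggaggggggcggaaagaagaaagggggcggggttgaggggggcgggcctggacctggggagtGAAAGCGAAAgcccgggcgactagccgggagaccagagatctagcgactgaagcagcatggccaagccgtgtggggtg

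In all 3 groups of cells the proteasome genes were measured at levels that allowed a comparison. A total of 42 of the 44 had counts, and each of the 42 had at least 50 counts in every pair of groups. PSMA8, a testis subunit of the alpha ring, and PSMB11, the catalytic subunit of thymic epithelium, had 0 counts in every barcode, which allows up to 0.871 CPM in ERBB2-high, 0.888 in RARRES2-high and 0.664 in FOLR1-high cells at a limit of 3 counts. Members that shared an entry with another gene (PSMA1, PSMA2, PSMA6, PSMB10 and PSMD9) were counted by their own transcripts only. Of 30 genes named as proteasome pseudogenes, 1 had counts, PSMC1P1 with 9.

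The standard proteasome was lowest in FOLR1-high cells. The 32 genes of the core without its immune and thymic subunits, of the base and of the lid summed to 9801 CPM in ERBB2-high cells (9697 to 9906), 10100.5 in RARRES2-high cells (9994 to 10208) and 6714 in FOLR1-high cells (6639 to 6790). ERBB2-high and RARRES2-high cells lay close together, and FOLR1-high cells lay below both. With mitochondrial and ribosomal protein genes taken out of the total, the levels were 11648, 12518 and 10468 CPM, so the order held while the gap to FOLR1-high cells became smaller. The barcodes that passed no marker share stood at 9226 CPM, those with under 1000 counts at 5988 and those without a marker count at 7329 (6812 to 7875).

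**Figure D1:**
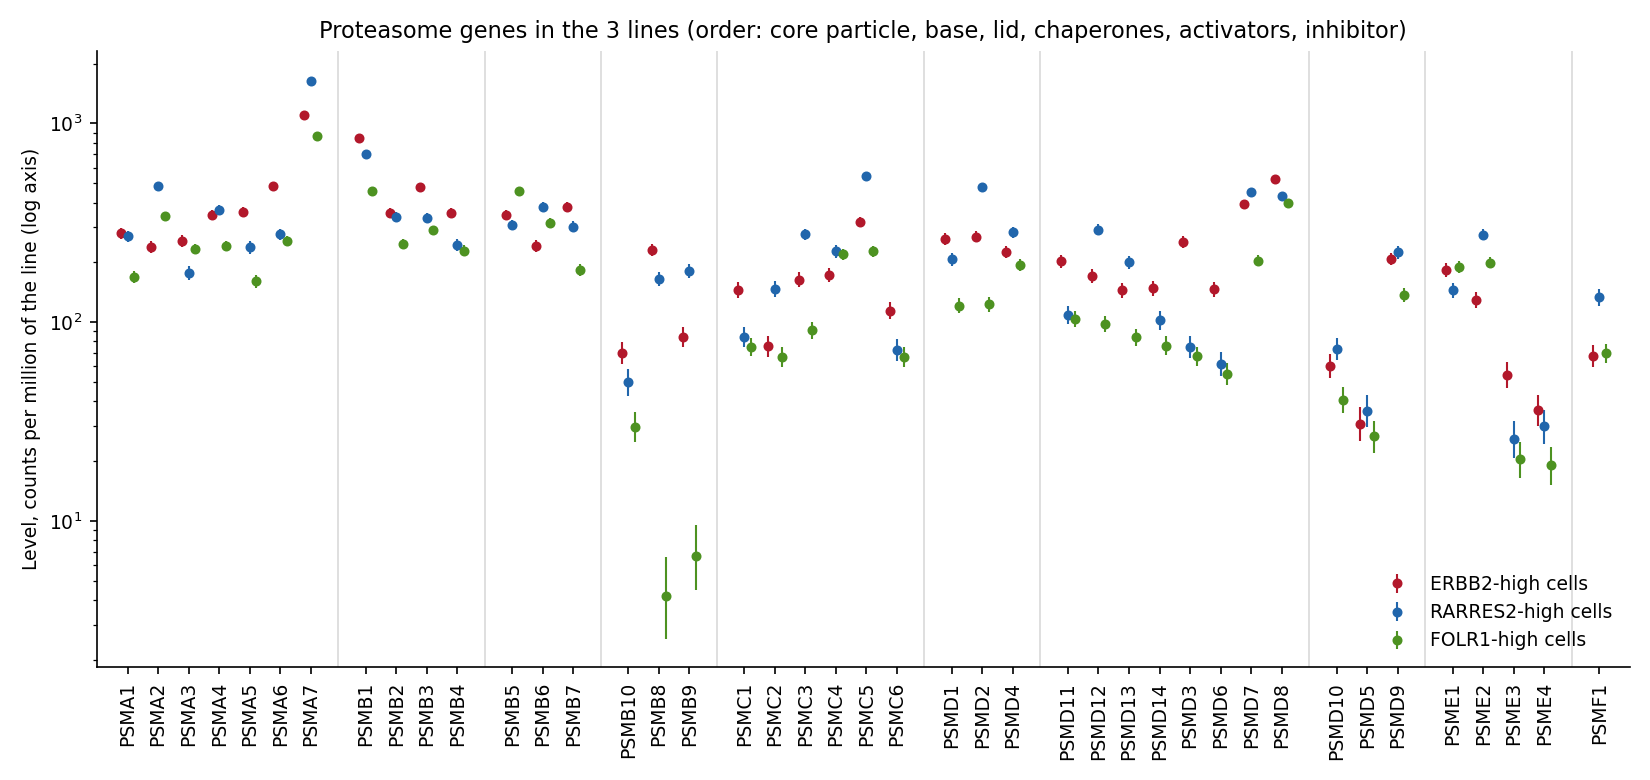
Level of each of the 42 proteasome genes with counts in ERBB2-high, RARRES2-high and FOLR1-high cells, in CPM on a log axis, with points for the level, bars for the exact Poisson interval and grey lines between role groups. PSMB8 and PSMB9 in FOLR1-high cells, at 4.21 and 6.64 CPM, lie far below every other point.

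The immune subunits separated FOLR1-high cells from both other groups, and 2 of the 3 genes carried this. PSMB8, the immune counterpart of PSMB5, had 230 CPM in ERBB2-high (791 counts), 165 in RARRES2-high (557) and 4.21 in FOLR1-high cells (19). PSMB9, the counterpart of PSMB6, had 84.0 (289 counts), 181 (610) and 6.64 CPM (30). PSMB10, the counterpart of PSMB7, had 70.0 (241 counts), 49.7 (168) and 29.7 CPM (134). PSMB8 was thus highest in ERBB2-high cells and PSMB9 in RARRES2-high cells, and both were low in FOLR1-high cells, where PSMB10 kept the most counts of the 3. Against FOLR1-high cells PSMB8 was 54.6-fold higher in ERBB2-high cells (34.7 to 91.2) and 39.2-fold higher in RARRES2-high cells (24.9 to 65.6). For PSMB9 the ratios were 12.6 (8.66 to 19.1) and 27.2 (18.8 to 40.6), and for PSMB10 they were 2.36 (1.90 to 2.94) and 1.68 (1.33 to 2.12). Between ERBB2-high and RARRES2-high cells, PSMB8 had a ratio of 1.39 (1.25 to 1.56) and PSMB9 one of 0.46 (0.40 to 0.54), so the 2 genes, which overlap on opposite strands of chromosome 6 (PSMB8 at 32840717 to 32844703, PSMB9 at 32844136 to 32859585), went opposite ways. The labels do not say whether reads were assigned by strand. Of the listed PSMB9 transcripts only ENST00000395330, which begins at 32844136, reaches into PSMB8, and it held 2.50% of the PSMB9 counts in ERBB2-high, 1.14% in RARRES2-high and 1.72% in FOLR1-high cells. The other, ENST00000374859, begins at 32854161, clear of PSMB8, and held 97.5%, 98.9% and 98.3%.

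Of the standard catalytic subunits, PSMB7 had the same order over the groups as its immune counterpart, and PSMB5 and PSMB6 did not. PSMB5 was at 344 CPM in ERBB2-high, 308 in RARRES2-high and 458 in FOLR1-high cells, highest where PSMB8 was lowest. PSMB6 was at 241, 381 and 317 CPM, and PSMB7 at 380, 302 and 183 CPM. Their sum was 966 (933 to 999), 992 (958 to 1026) and 958 CPM (930 to 987), while the immune sum was 384, 395 and 40.5 CPM. Without mitochondrial and ribosomal protein genes in the total (sums added after seeing the data) the standard sum was 1148, 1229 and 1493 CPM, highest in FOLR1-high cells, and the immune sum 456, 490 and 63.2 CPM, still lowest there. The immune genes held 28.4% of the counts of the 6 genes in ERBB2-high cells (27.1 to 29.8%), 28.5% in RARRES2-high cells (27.2 to 29.8%) and 4.06% in FOLR1-high cells (3.50 to 4.68%). Among barcodes outside the groups, this share was 26.0% (24.0 to 28.0%) where no marker share was passed, 21.1% (13.2 to 31.0%) under 1000 counts and 5.32% (1.75 to 12.0%) in the 35 without a marker count.

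Taken pair by pair, the nearly equal totals of ERBB2-high and RARRES2-high cells were made up differently. PSMB8 held 40.0% of the counts of PSMB8 and PSMB5 in ERBB2-high cells (37.8 to 42.2%), 34.9% in RARRES2-high cells (32.5 to 37.3%) and 0.910% in FOLR1-high cells (0.549 to 1.42%). PSMB9 held 25.8% (23.3 to 28.5%), 32.1% (30.0 to 34.3%) and 2.05% (1.39 to 2.92%) of its pair with PSMB6. PSMB10 held 15.6% (13.8 to 17.5%), 14.1% (12.2 to 16.2%) and 14.0% (11.8 to 16.3%) of its pair with PSMB7, with intervals that overlapped in all 3 groups. The lower level of PSMB10 in FOLR1-high cells was therefore matched by a lower level of PSMB7.

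**Figure D2:**
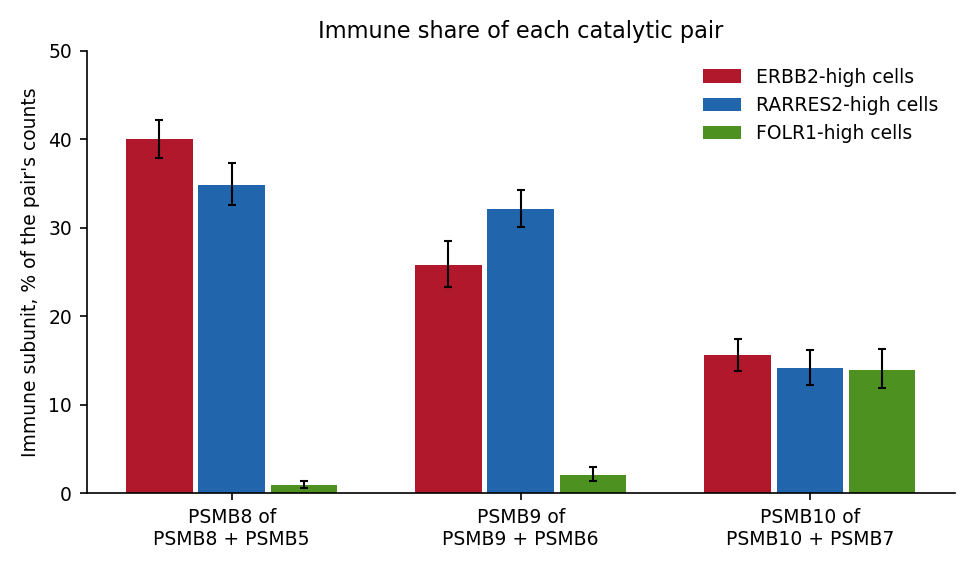
Share of the immune subunit in the summed counts of each catalytic pair, in percent, for the 3 groups of cells, with exact Clopper-Pearson intervals as error bars. The PSMB8 and PSMB9 bars of FOLR1-high cells are at 0.910% and 2.05%, while the 3 PSMB10 bars lie between 14.0% and 15.6%.

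Few FOLR1-high cells held a count of PSMB8 or PSMB9, which follows from the level, as 49 counts can lie in at most 49 of 765 cells. At least 1 count of PSMB8 or PSMB9 was seen in 72.7% of ERBB2-high cells (69.1 to 76.1%), 81.2% of RARRES2-high cells (77.4 to 84.6%) and 4.44% of FOLR1-high cells (34 of 765, 3.10 to 6.16%). In FOLR1-high cells the 5 cells with the most held 19 of the 49 counts, and 1 cell held 10. With each cell thinned to 2000 counts, which left out 42, 30 and 32 shallower cells, the shares were 46.4% (42.3 to 50.4%), 48.8% (44.0 to 53.5%) and 2.05% (1.15 to 3.35%). No type of cell that lacks these genes was in the pool to set a background, and whether the FOLR1-high counts came from free RNA, mixed barcodes or the cells themselves was not tested. Without the barcodes that Scrublet called doublets, the immune share of FOLR1-high cells was 3.70%.

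Genes of interferon signalling and class I presentation, a fixed list of 11, differed along with PSMB8 and PSMB9. Of those with at least 50 counts in the pair of groups, 9 of 9 were at least 1.5-fold higher in ERBB2-high than FOLR1-high cells (median ratio 3.70) and 10 of 10 in RARRES2-high than FOLR1-high cells (median 4.19). Over all genes 43.1% and 34.3% were that much higher. Without mitochondrial and ribosomal protein genes in the total (list counts on this scale were added after seeing the data) 9 of 9 and 9 of 10 were, beside 26.6% and 23.8% of all genes. B2M, the light chain of class I molecules, was at 2843 CPM in ERBB2-high, 3895 in RARRES2-high and 767 in FOLR1-high cells. TAP1, a peptide transporter subunit encoded next to PSMB8, was at 45.3, 47.4 and 10.9 CPM, a ratio of 4.18 (3.01 to 5.88) and 4.36 (3.15 to 6.14) over FOLR1-high cells. IRF1, a transcription factor of the interferon response, was at 30.5, 55.1 and 12.4 CPM, with a ratio of 0.55 for ERBB2-high over RARRES2-high cells.

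Each proteasome gene was then set against the others for all 3 pairs of groups, with 1.5-fold as the limit. Between ERBB2-high and RARRES2-high cells 8 of the 42 members were at least 1.5-fold higher in ERBB2-high cells and 10 were at least 1.5-fold lower, while over 9262 genes 34.5% were higher and 21.2% lower. Between ERBB2-high and FOLR1-high cells 25 members were higher in ERBB2-high cells and 1 was lower, beside 43.1% and 15.1% of 9378 genes. Between RARRES2-high and FOLR1-high cells 20 were higher in RARRES2-high cells and 0 lower, beside 34.3% and 21.1% of 9225 genes. The shares of members called higher were 19.0%, 59.5% and 47.6% in that order, so the first was under the share of all genes and the others were above it. In either direction 18, 26 and 20 members passed, beside 55.8%, 58.1% and 55.4% of all genes. Each group of cells enters 2 of these comparisons, and they are not independent of each other.

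The median of all genes was itself off 1, and the counts are to be read against it. On the log2 scale the median over all genes was 0.21 for ERBB2-high over RARRES2-high cells, 0.45 for ERBB2-high over FOLR1-high and 0.19 for RARRES2-high over FOLR1-high. The members had median ratios of 1.08, 1.68 and 1.47, and the median over all genes was 1.16, 1.36 and 1.14. After each comparison was centred on that median, 5 members were higher and 13 lower, then 10 higher and 5 lower, then 12 higher and 2 lower. Over all genes the centred shares were 27.2% higher and 26.9% lower, 24.9% and 26.2%, and 27.7% and 27.2%, in the same order. Scaling that left mitochondrial and ribosomal protein genes out of the total gave 7 higher and 11 lower, 10 and 5, and 11 and 3 members. On that scale 32.5% of all genes were higher and 22.7% lower, then 26.6% and 24.7%, then 23.8% and 31.7%. Scaling by the median of ratios gave 5 and 13, 10 and 5, and 12 and 3 members, and the shares of all genes on it are not given. After centring, the members higher than in FOLR1-high cells made up about the same share as over all genes, so these counts alone set the members apart from no other genes on the higher side.

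**Figure D3:**
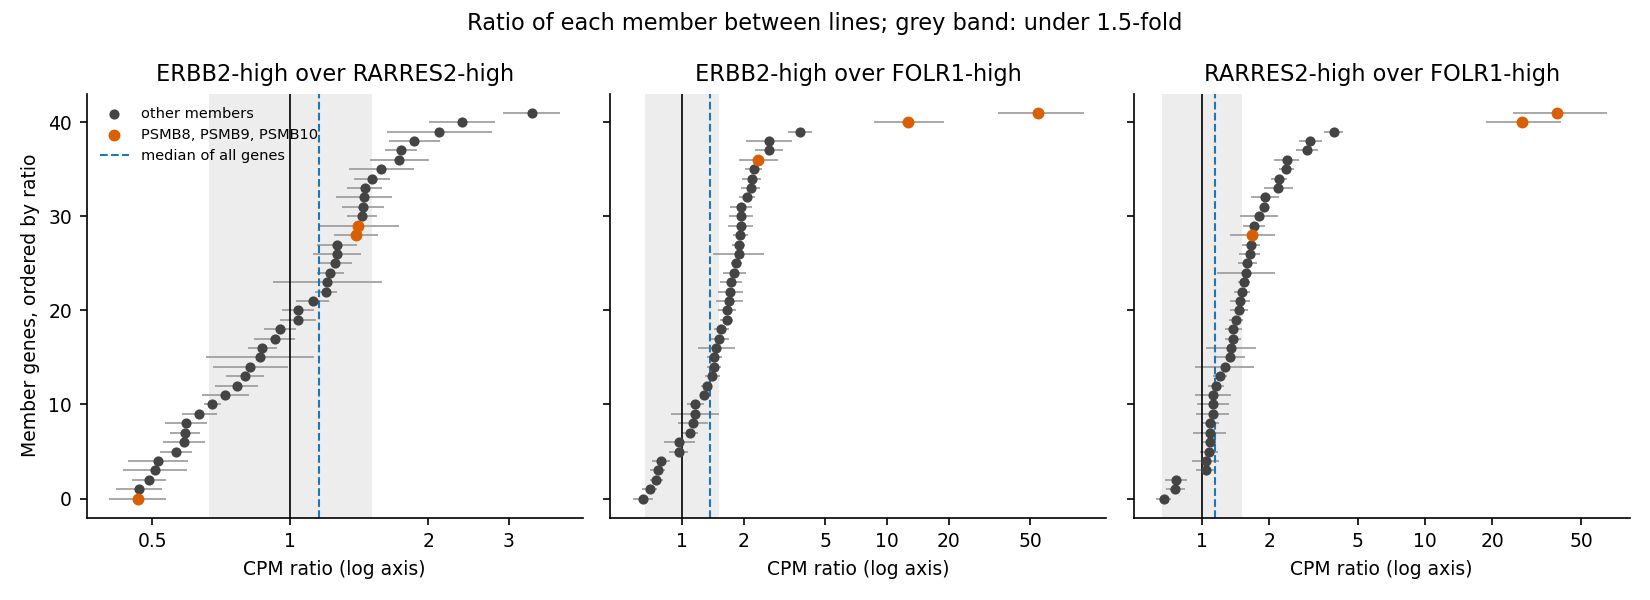
Ratio of the CPM of each of the 42 members between 2 groups of cells on a log axis, ordered by ratio, with bars for the exact conditional binomial interval, a grey band for ratios under 1.5-fold in either direction and a dashed line for the median of all genes. PSMB8 and PSMB9 stand far to the right in both comparisons with FOLR1-high cells, at 54.6 and 12.6 and at 39.2 and 27.2, while in the first comparison PSMB9 is the lowest point at 0.46.

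The alpha ring, which gates the entry to the core, had 7 measured genes. Its summed level was 3070 CPM in ERBB2-high, 3448 in RARRES2-high and 2264 in FOLR1-high cells. PSMA2 was at 239, 485 and 343 CPM and PSMA7 at 1105, 1634 and 862 CPM, both highest in RARRES2-high cells, with a PSMA2 ratio of 0.49 (0.45 to 0.54) for ERBB2-high over RARRES2-high cells. PSMA5, at 359, 238 and 160 CPM, and PSMA6, at 483, 277 and 255 CPM, were highest in ERBB2-high cells, 1.51-fold (1.38 to 1.65) and 1.74-fold (1.61 to 1.89) over RARRES2-high cells. PSMA5 was the member just inside the limit there, and PSMB4 at 1.45 was just outside it. On the lower side of the same comparison PSMB6 at 0.63 was just inside and PSMA7 at 0.68 just outside. PSMA1 (281, 270 and 169 CPM) and PSMA4 (348, 366 and 241 CPM) were alike in the first 2 groups and lower in FOLR1-high cells. PSMA4 was just inside the limit for RARRES2-high over FOLR1-high cells at 1.51, and PSMA5 just outside it at 1.48. PSMA3, at 256, 177 and 233 CPM, was lowest in RARRES2-high cells, with a ratio of 0.76 (0.69 to 0.84) over FOLR1-high cells. Without mitochondrial and ribosomal protein genes in the total, PSMA5 no longer passed the limit for ERBB2-high over RARRES2-high cells, and PSMA7 passed as lower. On that scale PSMA4 no longer passed it for RARRES2-high over FOLR1-high cells, and PSMA3 passed as lower.

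The 4 beta subunits that do not cut summed to 2031 CPM in ERBB2-high, 1623 in RARRES2-high and 1221 in FOLR1-high cells. PSMB1 was at 841, 703 and 455 CPM, PSMB3 at 480, 335 and 290, PSMB4 at 356, 245 and 229, and PSMB2 at 354, 340 and 247. None of the 4 passed 1.5-fold between ERBB2-high and RARRES2-high cells, where PSMB4 had the highest ratio (1.45, 1.33 to 1.59) and PSMB2 the lowest (1.04, 0.96 to 1.13). Over all genes 55.8% passed it there in either direction. Over FOLR1-high cells PSMB1, PSMB3 and PSMB4 passed the limit in ERBB2-high cells, at 1.85, 1.66 and 1.56, where 43.1% of all genes were that much higher. Without mitochondrial and ribosomal protein genes in the total 0 of the 4 did so, beside 26.6% of all genes.

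The base was highest in RARRES2-high cells. Its 6 ATPase genes summed to 992 CPM in ERBB2-high, 1349 in RARRES2-high and 746 in FOLR1-high cells, and 3 other base genes to 758, 968 and 438 CPM. PSMC2 was at 75.8, 147 and 66.9 CPM, PSMC3 at 164, 277 and 90.8 CPM, and PSMC5 at 320, 541 and 227 CPM. These 3 ATPase genes were 2.20-fold (1.90 to 2.55), 3.05-fold (2.71 to 3.43) and 2.38-fold (2.21 to 2.57) higher in RARRES2-high than FOLR1-high cells. The other ATPase genes did not share this order. PSMC1 (145, 84.1 and 75.1 CPM) and PSMC6 (114, 72.2 and 66.9 CPM) were highest in ERBB2-high cells, and PSMC4 (173, 227 and 219 CPM) was lowest there. The 6 subunits stand in 1 ring in equal numbers, and their mRNA levels went in different directions between the same cells.

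PSMD2, a scaffold subunit of the base, had the widest ratio outside the immune subunits in the comparison of RARRES2-high with FOLR1-high cells. It was at 269 CPM in ERBB2-high, 478 in RARRES2-high and 123 in FOLR1-high cells, a ratio of 3.89 (3.53 to 4.29) between the last 2. PSMD1, the other large scaffold, was at 263, 207 and 121 CPM and had its highest value in ERBB2-high cells. PSMD4, a ubiquitin receptor, differed least of these 3, at 226, 283 and 194 CPM.

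In the lid, ERBB2-high cells were highest for most genes named by these families. SEM1, a lid subunit without such a name, is not among the 8 counted below. It was highest in RARRES2-high cells, at 299 CPM in ERBB2-high, 920 in RARRES2-high and 573 in FOLR1-high cells. Its ratio for ERBB2-high over FOLR1-high cells was 0.52. The 8 lid genes summed to 1984 CPM in ERBB2-high, 1721 in RARRES2-high and 1088 in FOLR1-high cells, and 7 of 8 were at least 1.5-fold higher in ERBB2-high than FOLR1-high cells, where 43.1% of all genes were. The median lid ratio in that pair was 1.93, beside 1.36 over all genes. Without mitochondrial and ribosomal protein genes in the total the count fell to 2 of 8, PSMD3 and PSMD6, beside 26.6% of all genes, and the median was 1.47 beside 1.04. PSMD3 was at 253, 75.2 and 67.3 CPM, so ERBB2-high cells stood 3.36-fold (2.92 to 3.88) above RARRES2-high and 3.75-fold (3.29 to 4.29) above FOLR1-high cells, while the other 2 groups lay close together. PSMD6 (146, 61.9 and 55.1 CPM) and PSMD11 (202, 108 and 104 CPM) had the same order. PSMD14, the enzyme that cuts ubiquitin from substrates, was at 148, 102 and 76.2 CPM. PSMD12 (171, 292 and 98.3 CPM), PSMD13 (145, 201 and 83.9 CPM) and PSMD7 (392, 451 and 204 CPM) were highest in RARRES2-high cells instead, 2.97-fold, 2.39-fold and 2.21-fold over FOLR1-high cells. PSMD8 was at 527, 431 and 399 CPM and passed the limit in no pair.

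The chaperones that build the regulatory particle, PSMD5, PSMD9 and PSMD10, summed to 299, 334 and 205 CPM in ERBB2-high, RARRES2-high and FOLR1-high cells. PSMD9 was just inside the limit for ERBB2-high over FOLR1-high cells at 1.51, which it did not pass without mitochondrial and ribosomal protein genes in the total, and PSMD10 just outside it at 1.48 (1.20 to 1.81). PSMD10 was at 60.1, 73.4 and 40.7 CPM. PSMD5 was at 30.8, 35.8 and 26.6 CPM and passed the limit in no pair, with an interval that held 1 for ERBB2-high over FOLR1-high cells (1.16, 0.88 to 1.52). The 4 activator genes summed to 402, 476 and 429 CPM. Without mitochondrial and ribosomal protein genes in the total they summed to 478, 590 and 668 CPM, so that FOLR1-high cells were then highest. PSMF1, which encodes an inhibitor of the core in vitro, was at 67.7, 133 and 69.5 CPM, higher in RARRES2-high than in both other groups. It was highest there without those genes in the total too, at 80.4, 165 and 108 CPM.

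Within the activators, the partners PSME1 and PSME2 parted. PSME1 was at 183 CPM in ERBB2-high, 145 in RARRES2-high and 190 in FOLR1-high cells, and PSME2 at 129, 276 and 199 CPM. PSME2 thus had a ratio of 0.47 (0.42 to 0.52) for ERBB2-high over RARRES2-high cells where PSME1 had 1.26 (1.12 to 1.43). The median over all genes in that pair was 1.16, nearer to PSME1. PSME2 was also the 1 member at least 1.5-fold lower in ERBB2-high than FOLR1-high cells (0.65, 0.58 to 0.73), with PSMA2 just outside that limit at 0.70, while PSME1 had 0.96 there (0.87 to 1.07). Neither partner showed the low level in FOLR1-high cells that PSMB8 and PSMB9 showed. PSME3, the activator of the nucleus, was at 54.3, 25.8 and 20.4 CPM, highest in ERBB2-high cells, and PSME4 at 36.0, 29.9 and 19.0 CPM.

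Genes outside these families that serve the proteasome were counted from fixed lists. Of the 5 chaperones that build the core, 2 were at least 1.5-fold higher in ERBB2-high than FOLR1-high cells and 4 in RARRES2-high than FOLR1-high cells, with 0 lower, where 43.1% and 34.3% of all genes were higher. With mitochondrial and ribosomal protein genes out of the total, PSMG1 alone was higher and PSMG3 lower in the first pair, and PSMG3 alone was higher in the second, beside 26.6% and 23.8% of all genes higher. POMP, which helps the beta ring mature, was at 771, 722 and 403 CPM, and PSMG3 at 44.4, 128 and 54.5 CPM. Of 12 proteins that bind the proteasome, 9 were higher and 1 lower in ERBB2-high than FOLR1-high cells, and 7 higher and 0 lower in RARRES2-high than FOLR1-high cells. On the scale without those genes, 3 (RAD23B, UBQLN1 and VCP) were higher and 1 lower in the first pair, and 1 (RAD23B) was higher and 0 lower in the second. The summed level of the 12 for ERBB2-high over FOLR1-high cells then had a ratio of 0.97 in place of 1.27. On both scales the 1 lower was SEM1, the smallest lid subunit, at 299 CPM in ERBB2-high, 920 in RARRES2-high and 573 in FOLR1-high cells. ADRM1, a ubiquitin receptor of the base, was at 218, 249 and 144 CPM, and VCP, a segregase that delivers substrates, at 327, 186 and 153 CPM.

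Of 6 genes tied to transcription of proteasome genes, 3 were higher and 0 lower in ERBB2-high than FOLR1-high cells, beside 43.1% of all genes higher. In ERBB2-high over RARRES2-high cells 3 of the 5 with enough counts were higher and 0 lower, beside 34.5%, and in RARRES2-high over FOLR1-high cells 1 was higher (MAFG) and 1 lower (NGLY1, ratio 0.49), beside 34.3% higher and 21.1% lower. The scale without mitochondrial and ribosomal protein genes gave 2 higher and 0 lower, 3 and 0, and 1 and 2, in the same order. On that scale 26.6% of all genes were higher and 24.7% lower, then 32.5% and 22.7%, then 23.8% and 31.7%. NFE2L1, the factor known to raise proteasome genes when the proteasome is blocked, was at 69.7, 80.8 and 56.3 CPM and passed the limit in no pair. NFE2L2, a related factor of the oxidative stress response, was at 205, 97.1 and 65.1 CPM, and MAFG, which pairs with both, at 72.9, 50.6 and 26.6 CPM.

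The ratios of the members went along with those of neighbouring genes on the chromosome. For each member the median ratio of all genes within 5 Mb on its chromosome was taken, with at least 5 neighbours each. Over the 42 members, the log2 ratio of the member and the median log2 ratio of its neighbours had a Spearman correlation of 0.76 for ERBB2-high over RARRES2-high cells, 0.54 for ERBB2-high over FOLR1-high and 0.74 for RARRES2-high over FOLR1-high. The same value over all genes with enough neighbours was 0.38, 0.27 and 0.29. That set takes any gene that reached the minimum of counts for the pair of groups, which most members passed by far. Members and all genes were not matched for counts, and the part of counting error in the gap between them was not tested. The same limit holds for the Pearson values and the shares on the same side given below. Pearson values were 0.77, 0.37 and 0.26 for the members and 0.30, 0.23 and 0.20 for all genes. Without PSMB8 and PSMB9, a choice made after seeing the data, the members had Pearson values of 0.81, 0.65 and 0.80 and Spearman values of 0.80, 0.58 and 0.84. Member and neighbours lay on the same side of the median of all genes in 33, 30 and 31 of 42 members (78.6%, 71.4% and 73.8%), beside 64.2%, 58.8% and 62.8% of all genes. These are descriptions across genes of 1 library, and members that lie near each other share neighbours, as PSMB8 and PSMB9 do. With windows of 2 and 10 Mb the Spearman values were 0.75 and 0.77, 0.45 and 0.67, and 0.53 and 0.79. At 2 Mb the Pearson values of the last 2 comparisons were 0.23 and 0.12, no higher than the 0.24 and 0.23 of all genes, and the same side was shared by 65.9% of members and 63.9% of all genes in RARRES2-high over FOLR1-high cells.

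PSMD3 starts 0.293 Mb from the start of ERBB2 on chromosome 17, PSMB3 0.935 Mb and PSME3 3.14 Mb, and ERBB2 itself was used to define ERBB2-high cells. For ERBB2-high over RARRES2-high cells their ratios were 3.36, 1.43 and 2.11, and those of their neighbours 1.90, 1.88 and 1.99. PSMD6, on chromosome 3, had 2.37 beside 2.20 for its 7 neighbours. PSMA2 and PSMC2, far apart on chromosome 7, had 0.49 and 0.52 beside 0.54 and 0.46 for theirs. PSMC5 and PSMD12, 24.1 and 27.7 Mb from ERBB2 on the same chromosome, had 0.59 and 0.59, and the neighbours of each 0.74.

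PSMB9 in all 3 comparisons, PSMB8 in those with FOLR1-high cells and a few other members departed from their surroundings. PSMB8 and PSMB9 were 39.2-fold and 27.2-fold higher in RARRES2-high than FOLR1-high cells, where the median of their 113 neighbours was 0.94. PSMB9 had a ratio of 0.46 for ERBB2-high over RARRES2-high cells where its neighbours had 1.27, and PSME2 had 0.47 where the same 47 neighbours as those of PSME1 had 1.18. PSMF1 (0.51 beside 1.01) also parted from its neighbours in that comparison, and PSMD2 did so in RARRES2-high over FOLR1-high cells (3.89 beside 1.47).

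**Figure D4:**
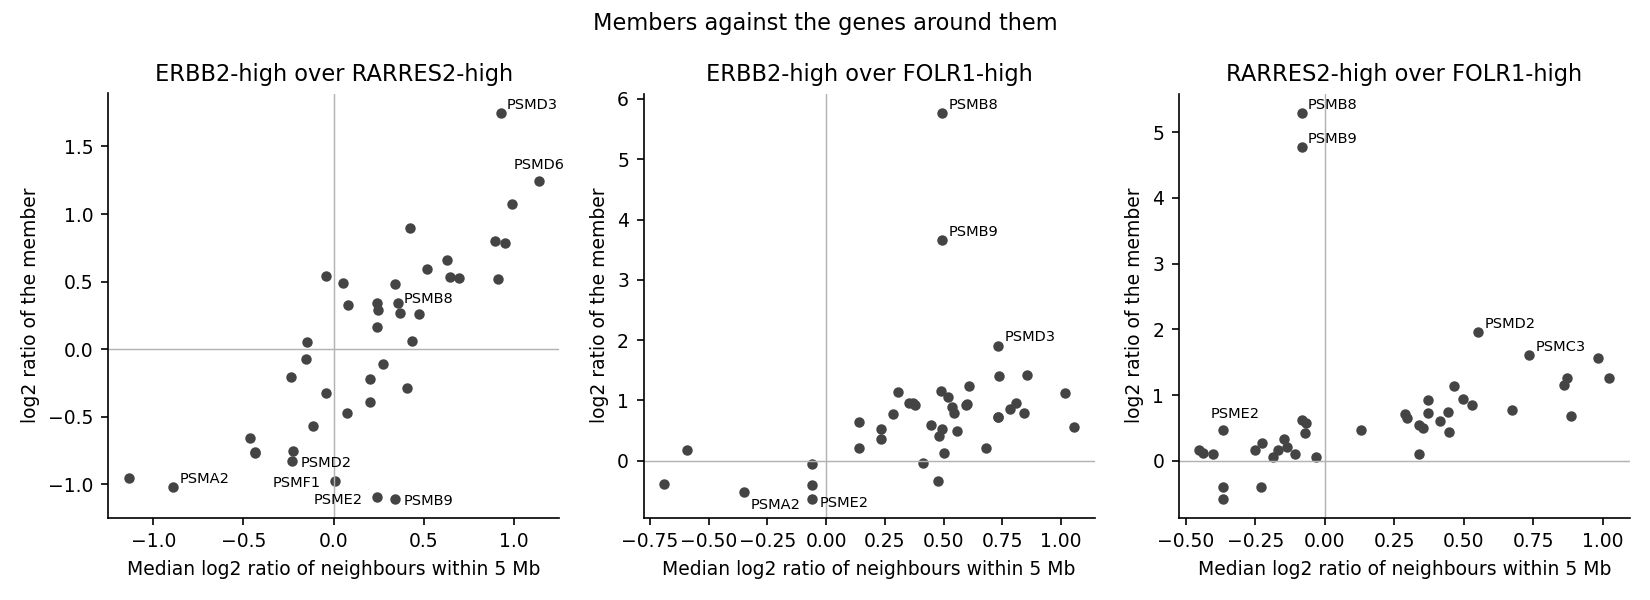
Log2 CPM ratio of each of the 42 members (vertical axis) against the median log2 ratio of genes within 5 Mb (horizontal axis) for the 3 pairs of groups of cells, 1 point a gene, with grey lines at 0. Points rise from lower left to upper right in the first panel, and PSMB8 and PSMB9 stand far above the other points in the other 2 panels.

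Proteasome counts per cell overlapped widely between groups. With each cell thinned to 2000 counts, the summed standard proteasome had a median of 19 counts in ERBB2-high cells (quartiles 15 and 24), 20 in RARRES2-high cells (17 and 25) and 13 in FOLR1-high cells (10 and 16). The variance over cells was 1.97, 2.07 and 1.46 times the mean in that order, where counting error alone gives 1. For single members, whose means are far lower and whose ratio is therefore nearer 1, the median variance over mean was 1.05, 1.08 and 1.03, and the highest was PSMD7 in RARRES2-high cells at 1.49. The variance of the sum was 1.82, 1.80 and 1.40 times the sum of the members' own variances, where genes that vary independently give 1, so the members' counts tended to vary together over the cells of each group. Cells differ in cycle phase, size and the share of ribosomal and mitochondrial counts, and the part of each in this was not tested.

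**Figure D5:**
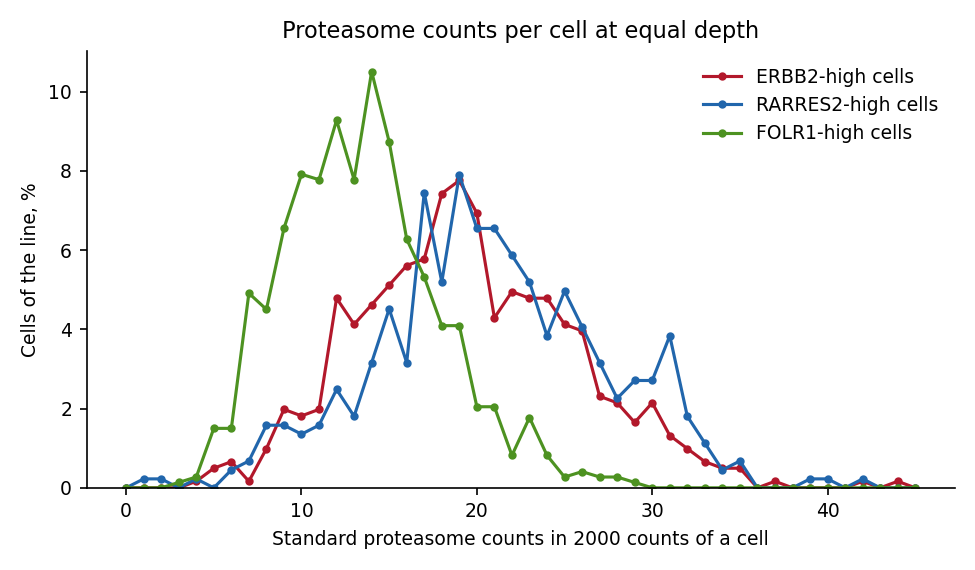
Percent of cells of each group (vertical axis) by the number of standard proteasome counts found in 2000 counts of a cell (horizontal axis), 1 line a group. FOLR1-high cells peak to the left, with a median of 13, and the other 2 groups, with medians of 19 and 20, lie over each other.

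The transcripts used within each gene differed little between groups. A gene entered where it had 2 or more listed transcripts, at least 100 counts in both groups and no transcript in an entry of several genes, and the limit was a difference of 20 percentage points in the share of 1 transcript. No member passed it, of 29 compared between ERBB2-high and RARRES2-high cells, 27 between ERBB2-high and FOLR1-high and 27 between RARRES2-high and FOLR1-high, where 2.38%, 1.86% and 3% of all genes did. The median largest difference was 1.71, 1.23 and 1.37 points in members and 2.77, 2.81 and 3.02 points in all genes. Of the 42 members with counts, 34 list 2 or more transcripts, and in 21 of these the leading transcript held at least 90% of the counts. In 5 members (PSMC2, PSMC3, PSMC6, PSMD8 and PSME3) it held under 50%.

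The largest difference belonged to PSMD1. Its transcript ENST00000308696 held 62.6% of the counts in ERBB2-high, 64.9% in RARRES2-high and 52.2% in FOLR1-high cells, but only 2.12%, 3.08% and 5.26% of these estimates came from matrix values that were whole numbers. Such a value need not be a read that fitted 1 transcript only: 3 transcripts of PSMD8 held the same 162 whole counts each in ERBB2-high cells, as an even split of several reads also gives. PSMD2 came next: ENST00000310118 held 80.8% (78.1 to 83.3%), 92.5% (91.1 to 93.8%) and 81.2% (77.7 to 84.4%), and 10.1% to 43.3% of its estimates were whole numbers. ENST00000439383, which starts further in, held 10.4%, 3.87% and 9.60%. PSMF1 (ENST00000335877 at 76.7%, 84.0% and 79.9%) and PSME1 (ENST00000206451 at 83.3%, 83.9% and 89.4%) differed by at most 7.37 and 6.08 points.

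PSMB8 used both of its starts, and its first exons differ, so the coding part of each is printed from GENCODE release 29 (GRCh38) on the strand of the gene.
PSMB8 ENST00000374882, chr6:32843850-32843996, minus strand: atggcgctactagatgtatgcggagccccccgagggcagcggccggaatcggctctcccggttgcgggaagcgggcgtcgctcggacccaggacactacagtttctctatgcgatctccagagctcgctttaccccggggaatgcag
PSMB8 ENST00000374881, chr6:32844279-32844413, minus strand: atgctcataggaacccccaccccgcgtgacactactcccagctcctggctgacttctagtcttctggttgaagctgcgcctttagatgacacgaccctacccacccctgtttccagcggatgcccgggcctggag
ENST00000374882 begins at 32844047, inside the gene's first listed promoter window, and held 59.8% of PSMB8 counts in ERBB2-high cells (56.3 to 63.2%) and 67.7% in RARRES2-high cells (63.6 to 71.6%). ENST00000374881 begins at 32844703, upstream, and held 39.3% (35.9 to 42.8%) and 31.4% (27.6 to 35.4%). The promoter that holds the GAAA repeat and TTCNNNGAA is that of the first of these transcripts. In FOLR1-high cells the shares rest on 19 counts, at 25.6% (8.69 to 50.4%) for ENST00000374882 and 74.4% (49.6 to 91.3%) for ENST00000374881, and this comparison fell under the minimum of 100 counts. The higher share of the downstream start in RARRES2-high than ERBB2-high cells was 7.92 points, under the limit of 20 points.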

How the data were processed

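One PromethION single-cell library of a pool of 3 ovarian cancer cell lines was analysed, and of the Illumina library only its barcodes. The deposited matrix holds estimated counts per transcript and barcode, which the authors made with Isosceles according to the series' title. They are not normalised, and a read that fits several transcripts is split between them. Cell Ranger 6.0.1 and GRCh38 are named in the submitters' processing notes. No aligner or annotation release is named in the sources used here. Of 8294569 matrix values, 39.8% were whole within 1e-06.

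Counts were summed per gene. Of 4492 transcripts in entries of several genes, 4463 were assigned to 1 gene through GENCODE release 29 by Ensembl identifier. Group sums were scaled to CPM with scipy 1.17.1 for exact Poisson, Clopper-Pearson and conditional binomial intervals. With 1 library no test was possible. The members, lists and rules were chosen with earlier results of these data known. Named were the immune subunits and their counterparts, members past 1.5-fold in a pair of groups with at least 50 counts, those next to that limit, the extremes of each role, the 5 largest transcript share differences, and members at 0 or in shared entries. No doublet was removed. Scrublet (scanpy 1.11.5, expected rate 0.02) called 77 barcodes, 9, 11 and 8 of them in ERBB2-high, RARRES2-high and FOLR1-high cells, and leaving them out was an alternative. Values of some genes of the fixed lists, and 1 list as a whole, are not reported here.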

Additional observations from a re-analysis of the deposited data

How the results depend on the processing

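No paired analysis was possible because all cells come from 1 library. No ratio of a member past 1.5-fold changed direction. Of 62 ratios under that limit, 18 crossed 1 without mitochondrial and ribosomal protein genes in the total, 18 under median of ratios scaling and 3 at a marker share of 90%. The standard proteasome level was 10418 CPM in RARRES2-high cells at a marker share of 90%, 10209 there as a mean over cells, and 6613 in FOLR1-high cells with at least 5 marker counts. Without mitochondrial and ribosomal protein genes in the total it was 11648, 12518 and 10468 CPM in ERBB2-high, RARRES2-high and FOLR1-high cells, without entries of several genes 8798, 9068 and 5947, and with the whole of those entries, an alternative chosen after seeing the data, 9972, 10250.2 and 6832. From matrix values that were whole numbers alone the immune share was 26.3%, 25.9% and 4.81%.

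With a limit of 2-fold, 6, 10 and 9 members passed in ERBB2-high over RARRES2-high, ERBB2-high over FOLR1-high and RARRES2-high over FOLR1-high cells, in place of 18, 26 and 20, where 34.1%, 35.3% and 34.7% of all genes did. At 1.5-fold the second count was 15 both without mitochondrial and ribosomal protein genes and with median of ratios scaling. Without those genes 26.6% of all genes were higher and 24.7% lower in that pair. With a limit of 10 points, 1, 1 and 2 members passed the transcript comparison in place of 0. The share of all genes past 10 points is not given, so these counts do not set the members apart from other genes. Of 93 recomputed main values 70 stayed within their limits. Ratios of single members moved by more than their interval in 99 of 126 cases under median of ratios scaling and in 76 of 126 without mitochondrial and ribosomal protein genes, and in 6 under all other settings. Depth limits PSMB8 and PSMB9 in FOLR1-high cells, which rest on 19 and 30 counts.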
